A study of Mus musculus with 2 samples.

Results

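The Fos and Jun genes encode the core subunits of AP-1, a family of paired transcription factors. The 7 genes Fos, Fosb, Fosl1, Fosl2, Jun, Junb and Jund were chosen by name, as the complete Fos and Jun gene families of the mouse, out of 27998 genes in the deposited count matrices. They were measured by 10x Genomics single-cell RNA sequencing in mouse induced pluripotent stem cells, which are reprogrammed cells held in an embryonic stem cell-like state. One library came from cells with the SRFΔ/Δ genotype, in which serum response factor is knocked out, and the other from SRFf/f cells, which carry the floxed alleles and serve as the wild type. Both lines were grown in medium that contained serum. The number of clones or cultures behind each library is not given in the sources used here. With 1 library per genotype every difference compares these 2 libraries, no test of genotype was possible, and each interval is a 95% interval that covers counting error only. Cells were kept when they had at least 1000 genes, a mitochondrial share of 1 to 10% and fewer than 5 unique molecular identifiers (UMIs) summed over the fibroblast genes Col1a2, Col3a1 and Acta2. In all, 731 knockout cells were kept out of 1073, and 893 wild-type cells out of 954.

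A Fos protein pairs with a Jun protein through a leucine zipper, and Jun proteins also pair with each other. The pairs bind a short palindrome known as the TPA response element, or the closely related cyclic AMP response element. Serum growth factors act on the Fos gene through serum response factor, which binds a CArG box together with a partner factor of the Elk group, and through CREB at cyclic AMP response elements, so that Fos messenger RNA appears within minutes and is then degraded fast. Jun is known to be driven in part by AP-1 and ATF2 at sites in its own promoter.

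The promoters of Fos, Fosb, Jun and Junb are shown because Fos, Fosb and Jun had the lowest log2 ratios of knockout to wild type, while Junb, also an early-response gene, was nearer to the wild-type level. RefSeq promoter sequences (GRCm38.p6), running from 250 bases before to 50 bases after the start site, matched 6 of the 7 members, Fosl1 being the exception. Capitals mark TGACG (the core of a cyclic AMP response element), the TGANNTCA form of an AP-1 site and TATAAA, searched on both strands. The windows are chr12:85473640-85473939 on the plus strand for Fos, chr7:19309996-19310295 on the minus strand for Fosb, chr4:95052173-95052472 on the minus strand for Jun and chr8:84978699-84978998 on the minus strand for Junb, each printed 5′ to 3′ along its gene.
Fos: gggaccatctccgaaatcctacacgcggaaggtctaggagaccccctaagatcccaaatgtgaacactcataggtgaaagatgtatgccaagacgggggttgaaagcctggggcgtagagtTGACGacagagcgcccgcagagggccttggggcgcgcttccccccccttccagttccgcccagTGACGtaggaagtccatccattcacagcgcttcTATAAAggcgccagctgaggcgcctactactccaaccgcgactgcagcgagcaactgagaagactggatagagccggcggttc
Fosb: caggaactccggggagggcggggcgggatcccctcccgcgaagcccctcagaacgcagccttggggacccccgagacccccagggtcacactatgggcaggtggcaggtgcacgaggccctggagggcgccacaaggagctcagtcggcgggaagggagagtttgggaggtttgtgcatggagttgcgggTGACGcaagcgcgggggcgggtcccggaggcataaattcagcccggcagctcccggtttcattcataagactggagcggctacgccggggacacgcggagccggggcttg
Jun: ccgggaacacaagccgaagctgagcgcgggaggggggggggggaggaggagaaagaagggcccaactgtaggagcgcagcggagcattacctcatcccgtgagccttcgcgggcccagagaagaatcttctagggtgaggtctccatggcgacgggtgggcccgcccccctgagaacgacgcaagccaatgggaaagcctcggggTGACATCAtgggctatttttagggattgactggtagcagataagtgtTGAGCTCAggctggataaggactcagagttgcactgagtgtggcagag
Junb: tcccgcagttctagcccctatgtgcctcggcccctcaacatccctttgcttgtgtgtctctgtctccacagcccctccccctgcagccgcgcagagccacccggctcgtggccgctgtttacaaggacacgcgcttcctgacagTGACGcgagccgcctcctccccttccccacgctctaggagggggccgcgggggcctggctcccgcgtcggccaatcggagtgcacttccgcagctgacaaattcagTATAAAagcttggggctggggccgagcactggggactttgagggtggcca
Counting the start site as 0, the Fos window holds TGACG at -129 to -125 and at -66 to -62, and TATAAA at -33 to -28. Fosb has a single TGACG at -60 to -56. The Jun window instead holds a pair of TGANNTCA matches, TGACATCA at -45 to -38 and TGAGCTCA at 2 to 9, and no TGACG. Junb has TGACG at -106 to -102, and its RefSeq start site lies 30 bases upstream of the GENCODE M21 gene start, with TATAAA at 0 to 5. Of all 32851 RefSeq promoters of this length, 20.8% hold TGACG, 14.1% hold TGANNTCA and 13.6% hold TATAAA. None of the 6 windows holds a CArG box or the TGANTCA form of the AP-1 site, which 1.63% and 7.81% of all promoters hold, and none holds the full TGACGTCA palindrome, which 1.79% hold. The serum response element of Fos is known to lie further upstream than this window. Each match is a run of letters and not a measured binding site.

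The knocked-out gene was checked first. Srf gave 3 UMIs in the kept knockout cells and 202 in the kept wild-type cells, or 0.165 against 8.68 counts per 1000000 UMIs (CPM), a log2 ratio of -5.50 (-8.01 to -4.15). The kept cells held 18203451 UMIs in the knockout library and 23270714 in the wild type, with medians of 24423 and 26656 per cell. All 10 pluripotency markers were detected in both libraries, at summed levels of 8972 and 12713 CPM, so the labelled cell type was present in each. Dppa5a alone gave 6777 and 10272 CPM of these sums. Other cell types were present too. The 10 primitive endoderm markers summed to 389 CPM in the knockout library and 25.4 in the wild type, the 10 macrophage markers to 138 and 57.3, and the 10 fibroblast markers to 26.2 and 25.5. Lum and Aif1 were the only markers of these 3 lists at 0, both in the wild type. Cells with at least 10 UMIs of the fibroblast or of the macrophage markers numbered 9 in the knockout beside 12 in the wild type, and the levels are given with and without them. Of the cell barcodes, 2 occurred in both libraries, 1 of them among the kept cells.

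Fos, the subunit with the classic short burst after growth factor stimulation, lies at chr12:85473890-85477273 on the plus strand. It gave 259 UMIs in the knockout library and 2678 in the wild type, or 14.2 CPM (12.5 to 16.1) against 115.1 CPM (110.8 to 119.5). The intervals are far apart, and the level was 8.07-fold lower in the knockout, with a log2 ratio of -3.01 (-3.21 to -2.83). Only 3 of the 6554 genes that averaged 10 CPM or more over the libraries had a lower ratio, against a median over those genes of 0.09.

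Fosb, which like Fos is an early-response gene and also gives a shortened protein form known from the brain, lies at chr7:19302696-19310051 on the minus strand. Its 241 knockout and 616 wild-type UMIs correspond to 13.2 CPM (11.6 to 15.0) and 26.5 CPM (24.4 to 28.6). The log2 ratio of -0.998 (-1.22 to -0.78) lies just short of 2-fold, the fold being 1.997.

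Fosl1, also called Fra-1, lacks the transactivation domain of Fos and is itself known as an AP-1 target. It went the other way. At chr19:5447547-5455946 on the plus strand, it gave 94 UMIs in the knockout beside 14 in the wild type, or 5.16 CPM (4.17 to 6.32) against 0.602 CPM (0.329 to 1.01). The knockout level was 8.33-fold higher, with a log2 ratio of 3.06 (2.28 to 4.03). Fosl1 is under the 10 CPM minimum and so is not among the 6554 genes. It was spread thinly: 82 knockout cells held a UMI and the highest cell held 4. In the wild type 11 cells held one, and a single fibroblast-marker cell held 4 of the 14 UMIs. Without the fibroblast-marker and macrophage-marker cells the counts were 93 and 9, and the log2 ratio was 3.65 (2.73 to 4.89).

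Fosl2, or Fra-2, is the other Fos-related antigen. It lies at chr5:32135801-32157842 on the plus strand and was scarce in both libraries, with 32 and 35 UMIs, or 1.76 CPM (1.202 to 2.48) and 1.504 CPM (1.05 to 2.09). Its log2 ratio of 0.23 (-0.51 to 0.96) covers 0, so a difference was not detectable at this depth.

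The RNA of the Jun genes stood closer to the wild type than that of Fos did, each with a lower level in the knockout library. Jun, the strongest activator of the 3, lies at chr4:95049034-95052222 on the minus strand. It gave 528 and 1003 UMIs, or 29.0 CPM (26.6 to 31.6) in the knockout against 43.1 CPM (40.5 to 45.9) in the wild type, a log2 ratio of -0.57 (-0.73 to -0.42). Junb, which can act as a brake on Jun, lies at chr8:84974484-84978718 on the minus strand and gave 828 and 1217 UMIs. Its levels of 45.5 CPM (42.4 to 48.7) and 52.3 CPM (49.4 to 55.3) are near each other, with a log2 ratio of -0.20 (-0.33 to -0.07). Jund, the steadily expressed Jun gene, lies at chr8:70698949-70700616 on the plus strand and gave 4975 and 7449 UMIs. It stood at 273.3 CPM (265.8 to 281.0) in the knockout and 320.1 CPM (312.9 to 327.5) in the wild type, a log2 ratio of -0.23 (-0.28 to -0.18). Both ratios lie above -0.30, the 10th percentile of all measured genes.

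**Figure D1:**
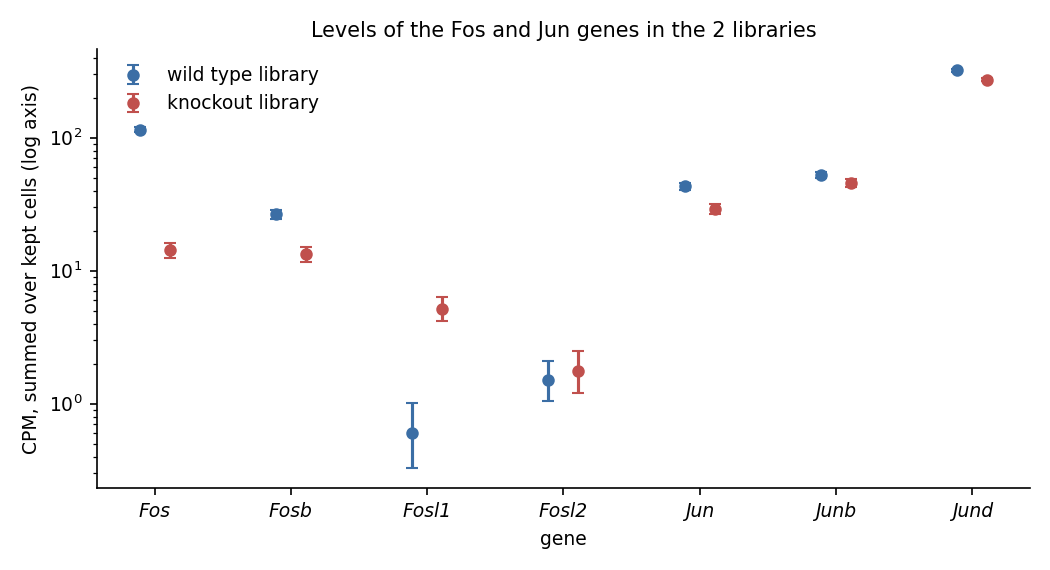
CPM of the 7 genes on a log axis, summed over 731 kept knockout cells (red) and 893 kept wild-type cells (blue), with 95% Poisson intervals for counting error. Fos sits at 14.2 in the knockout beside 115.1 in the wild type, Fosl1 is the gene with the knockout point well above the wild-type point, and Junb and Jund lie close together.

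Of the 5 members with at least 10 CPM, 1 was lower by 2-fold or more in the knockout (Fos) and 0 were higher. Over all 6554 such genes 0.565% were lower by 2-fold or more and 1.6% were higher, and a lower call was thus rare in these libraries. All 5 had a log2 ratio under 0, with a median of -0.57, where 39.03% of all measured genes did.

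Fos was found in fewer knockout cells and with fewer UMIs per positive cell. Each cell was thinned to 10562 UMIs, the 10th percentile of depth, which left 661 knockout and 800 wild-type cells after dropping 70 and 93 shallower ones. Fos was then detected in 61 knockout cells, 9.23% (7.13 to 11.7, exact binomial interval), and in 419 wild-type cells, 52.4% (48.8 to 55.9). Unthinned shares were 15.2% and 68.2%. Positive cells held a mean of 1.79 thinned UMIs in the knockout beside 2.47 in the wild type, and 151 wild-type cells held 3 or more, against 6 knockout cells. For the fibroblast gene Bgn, given for scale, the thinned shares were 1.51% and 1.25%. Most Bgn UMIs lay in the kept fibroblast-marker cells, 121 of 143 in the knockout and 156 of 172 in the wild type. Bgn is thus not a measure of free RNA alone.

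The other members followed their levels. Fosb was detected in 10.9% (8.62 to 13.5) of thinned knockout cells against 21.4% (18.6 to 24.4) of wild-type cells. Fosl1 was found in 5.14% (3.59 to 7.11) against 0.50% (0.136 to 1.28), the wild-type share coming from 4 cells. That share lay below the Bgn share of all thinned cells, which is not a floor of free RNA alone. With so few cells it was not read as expression. Fosl2 was found in 2.12% (1.16 to 3.53) and 1.75% (0.960 to 2.92), with intervals that overlap each other and those of Bgn. Jun was detected in 15.1% (12.5 to 18.1) against 25.8% (22.8 to 28.9) of cells, and Junb in 31.0% (27.5 to 34.7) against 36.6% (33.3 to 40.1). Jund was nearly ubiquitous, in 85.6% (82.7 to 88.2) and 90.5% (88.3 to 92.4). At least 3 of the 7 members were detected together in 17.9% of knockout and 40.9% of wild-type cells, and 9.38% and 3.88% held none.

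**Figure D2:**
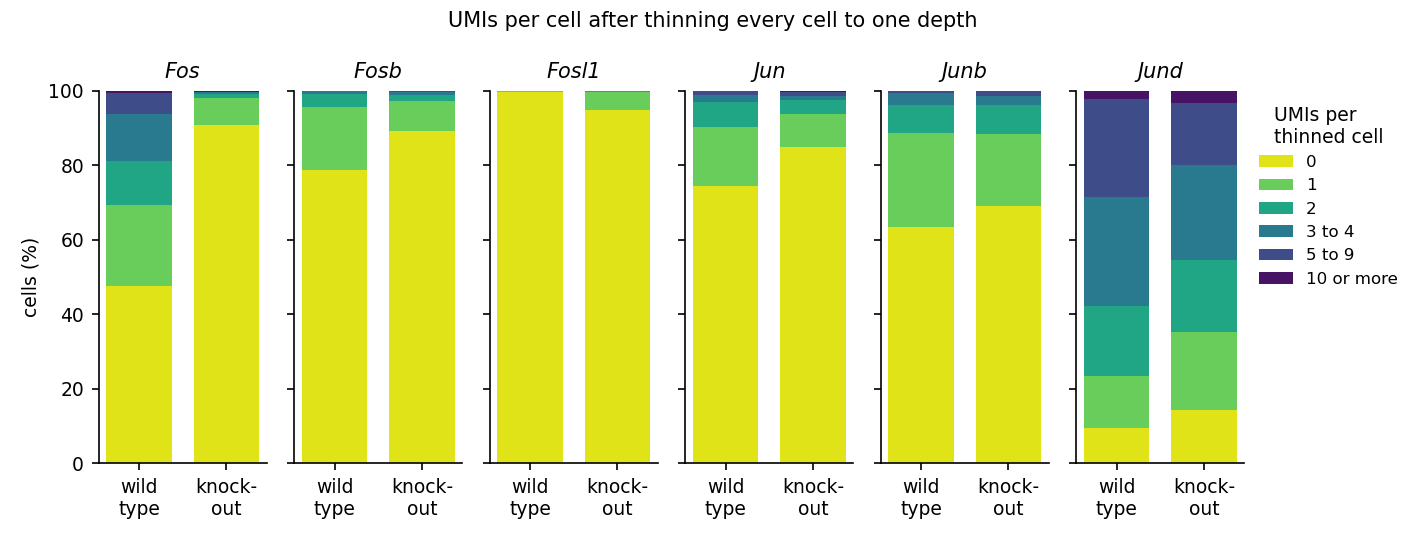
Share of cells by number of UMIs per cell for 6 of the genes, after thinning 800 wild-type and 661 knockout cells to 10562 UMIs each. The Fos bar of the wild type is spread over all classes, with 52.4% of cells above 0, while 9.23% of knockout cells lie above 0.

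Knockout Fos UMIs sat in few cells. The highest 2 cells held 28.2% of them, against 1.90% in the wild type. The top 10% of cells held 85.7% against 42.6%, where 15.2% and 68.2% of cells held any Fos UMI. The highest knockout cell, with 44 Fos, 45 Jun and 9 Fosb UMIs, also carried 51 UMIs of fibroblast markers, 1 UMI of Pou5f1 and 0 of Srf. The next cell, with 29 Fos, 37 Jun, 13 Fosb and 57 Jund UMIs, carried 134 UMIs of primitive endoderm markers, 0 of Pou5f1 and 0 of fibroblast markers. In the wild type the highest Fos cell held 27 UMIs with 37 of Pou5f1 and 0 of fibroblast markers, whereas the highest Jun cell, with 48 Jun and 19 Fosb UMIs, carried 70 fibroblast-marker UMIs. Across thinned cells the variance of Fos was 5.36 times its mean in the knockout and 2.64 times in the wild type. For Jun the ratios were 5.40 and 2.80, beside medians over all measured genes of 1.098 and 1.07. These knockout values rest partly on the 2 highest cells. Without fibroblast-marker and macrophage-marker cells the ratios were 2.94 for Fos and 4.77 for Jun, the highest 2 cells held 16.9% of the Fos UMIs, and positive cells held a mean of 1.5 thinned Fos UMIs. Without primitive endoderm-gene cells as well, the ratios were 1.59 and 1.65, the highest 2 cells held 10.3%, and the mean was 1.28. The top 10% share did not fall with them: it was 88.0% in these cells, of which 12.3% held any Fos UMI. In wild-type cells chosen by the same rules the ratios of variance to mean were 2.57 for Fos and 2.24 for Jun.

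Cells with primitive endoderm genes held much of the remaining Fos, Fosb and Jun of the knockout library. These are cells with at least 5 UMIs summed over Gata6, Gata4, Sox17, Sox7, Pdgfra, Dab2 and Foxa2, and they numbered 103 in the knockout beside 1 in the wild type once fibroblast-marker and macrophage-marker cells were set aside. Their primitive endoderm markers summed to 2596 CPM, against 34.0 CPM in the other 619 knockout cells. Jun stood at 105.5 CPM (93.1 to 119) in them against 13.9 CPM (12.1 to 15.9) in the others, a 7.58-fold difference, and was detected in 52.4% against 19.1% of unthinned cells. Fosb stood at 40.8 CPM (33.2 to 49.5) against 8.02 CPM (6.67 to 9.55), or 5.09-fold. Fos was at 35.96 CPM (28.9 to 44.2) against 7.505 CPM (6.21 to 8.99), or 4.80-fold. A single cell of the 103 held 29 of their 90 Fos UMIs and 37 of their 264 Jun UMIs. The Fos level thus rests in part on that cell. Jund was at 493.9 CPM (467 to 522) against 234.2 CPM (227 to 242), or 2.11-fold.

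Junb and Fosl1 did not share this pattern. Junb stood at 42.8 CPM (35.0 to 51.7) in the primitive endoderm-gene cells and 44.4 CPM (41.1 to 47.8) in the other knockout cells, with a log2 difference of -0.05 (-0.36 to 0.24). Fosl1 gave 3 UMIs in the 103 cells, 1.199 CPM (0.247 to 3.50), against 5.77 CPM (4.64 to 7.10) in the other 619, a log2 difference of -2.05 (-4.57 to -0.67). The 619 knockout cells had a median depth of 24701 UMIs and the 103 one of 23582. The rule for these cells read none of the 7 genes.

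**Figure D3:**
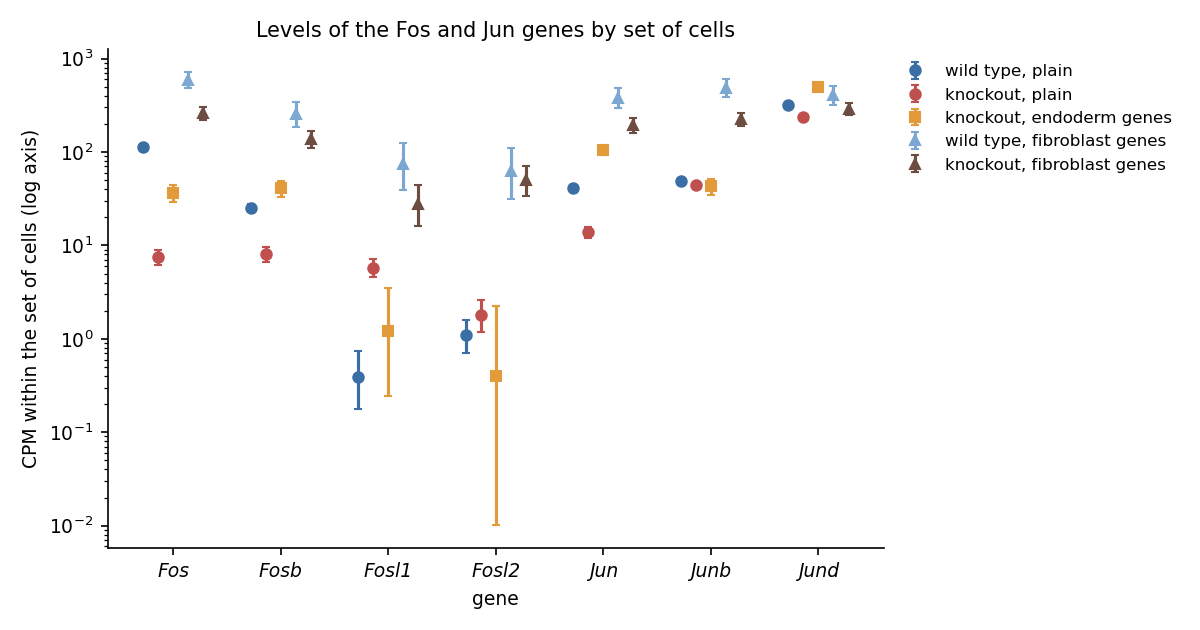
CPM of the 7 genes on a log axis in 5 sets of cells, with 95% Poisson intervals for counting error. Circles are the 880 wild-type (blue) and 619 knockout (red) cells left after fibroblast-marker, macrophage-marker and primitive endoderm-gene cells were removed, the orange squares are the 103 knockout cells with primitive endoderm genes, and triangles are the 10 wild-type and 22 knockout cells left out for fibroblast genes. The squares lie above the red circles for Fos, Fosb, Jun and Jund and not for Junb, Fosl1 or Fosl2.

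Comparing the 619 knockout with the 880 wild-type cells left after both sets were removed widened the gap between the libraries for several members. Fos was at 7.505 CPM against 113.9 CPM, a log2 ratio of -3.92 (-4.20 to -3.66), and Fosb at 8.02 against 25.4 CPM, -1.66 (-1.95 to -1.38). Jun was at 13.9 against 41.1 CPM, moving from -0.57 to -1.56 (-1.78 to -1.35). With these cells 3 of the 5 members were lower by 2-fold or more, against 0.606% of 6437 genes. Junb stayed at -0.14 (-0.28 to -0.01) and Jund was at -0.45 (-0.51 to -0.39), while Fosl1 was at 3.81 (2.89 to 5.06). Removing the fibroblast-marker and macrophage-marker cells alone gave -3.31 for Fos and -0.63 for Jun, and carried Fosb past 2-fold at -1.01, so that 2 of 5 members were called against 0.582% of 6531 genes. Bgn stood in the 619 knockout cells at 0.0706% of its level in the cells left out for fibroblast genes. The same share of the Fos level of those cells is 0.183 CPM, against the 7.505 CPM measured. For Fosl1 in the wild type the same reckoning gives 0.0284 CPM, against 0.391 CPM measured in the 880 cells from 9 UMIs. Bgn is 1 of the markers by which cells were removed from these sets, so its low level there is partly set by that rule. The part of free RNA in these values was not tested.

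Chromosome 8 carries both Junb and Jund, and the UMIs from that chromosome were raised in part of the cells. A chromosome 8 share over 1.2 times the wild-type median was present in 50.3% of kept knockout and 9.85% of kept wild-type cells. In the knockout library Junb stood at 60.1 CPM (54.8 to 65.8) in 301 cells with the raised share and 28.9 CPM (25.3 to 32.9) in 318 without it, a log2 difference of 1.05 (0.82 to 1.29). In the wild type the same split, 85 and 795 cells, gave 54.3 and 48.5 CPM, a difference of 0.17 (-0.12 to 0.44). Jund differed by 0.45 (0.35 to 0.54) in the knockout and by 0.36 (0.26 to 0.46) in the wild type. Both genes are part of the share by which the cells were split, so these differences are descriptions. For scale, the median difference over 380 chromosome 8 genes was 0.48 and 0.52. Between the cells with the raised share, 301 knockout and 85 wild-type, the log2 ratio was 0.14 (-0.14 to 0.45) for Junb, -0.57 (-0.68 to -0.45) for Jund, -0.62 (-1.08 to -0.13) for Jun on chromosome 4 and -4.02 (-4.44 to -3.63) for Fos. Between cells of the usual share only, 318 knockout and 795 wild-type, the log2 ratios were -0.74 (-0.96 to -0.54) for Junb and -0.65 (-0.73 to -0.57) for Jund, and -1.85 (-2.18 to -1.55) for Jun. From the raised to the usual share the ratio thus moved most for Jun, which is not on chromosome 8, and also for Junb, while Jund and Fos differed little. Between the cells of the usual share the log2 ratio was -4.03 (-4.47 to -3.66) for Fos, -1.68 (-2.10 to -1.31) for Fosb and 3.54 (2.49 to 4.92) for Fosl1. Here too 3 of 5 members passed 2-fold, against 0.736% of 6522 genes.

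**Figure D4:**
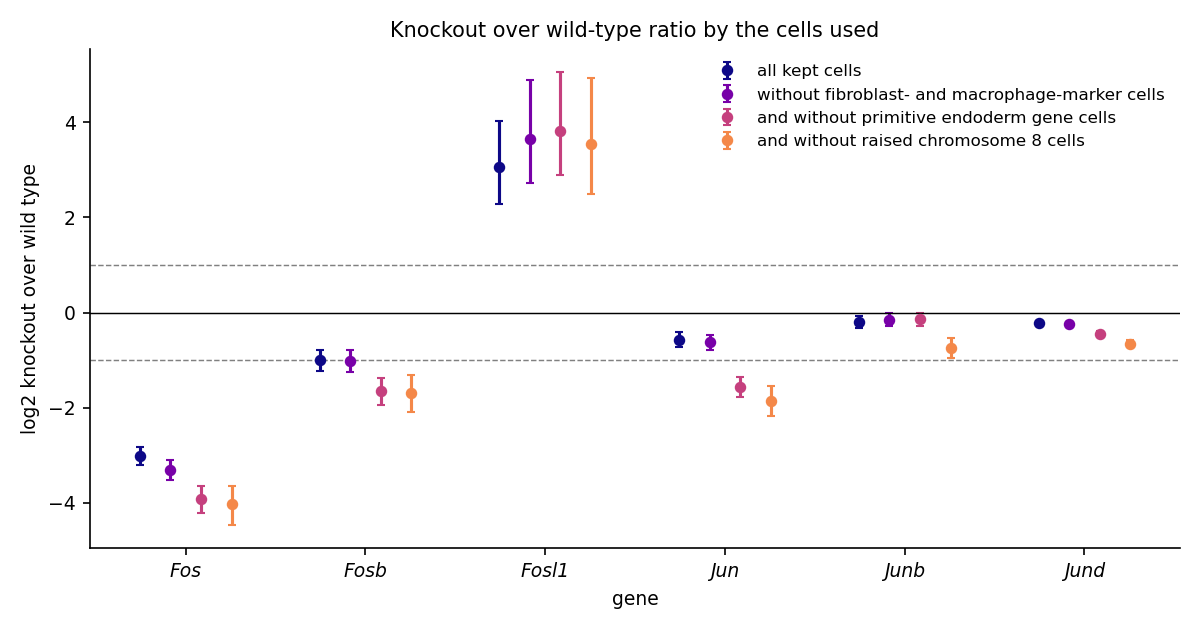
Log2 knockout over wild-type ratio of 6 genes in 4 nested sets of cells, with 95% intervals for counting error and dashed lines at 2-fold. Each of Fos, Fosb and Jun lies lower in the smaller 2 sets than over all kept cells, Jun passing from -0.57 to -1.56 and -1.85, while Junb drops mainly at the last step, from -0.14 to -0.74.

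Members were found in the same cells a little more often than their separate shares would give. Over thinned wild-type cells 134 of 800 held both Fos and Jun, 16.8% (14.2 to 19.5), where the product of the shares is 13.5%, a ratio of 1.24. Fos with Fosb gave 1.27, Fosb with Jun 1.29, Fos with Junb 1.22 and Fos with Jund 1.03. All 21 pairs were computed in each library. Of the 11 pairs with a product of at least 10 cells the ratios ran from 1.002 to 1.29 in the wild type, with a median of 1.15. These ratios come from a single random draw of the thinning. Averaged over draws they ran from 0.967 to 1.33, and 10 of the 11 were over 1. The rank correlations over all 21 pairs ran from -0.02 to 0.24. Cells of one library share its preparation, the counts are sparse, and correlations of this size are no finding.

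In the knockout library the ratios were 2.49 for Fos and Jun, 2.30 for Fosb and Jun and 1.96 for Fos and Fosb over 661 cells. Averaged over draws of the thinning they were 2.18, 2.27 and 2.64. Fos with Jun and Fos with Fosb fall under the minimum product of 10 cells used above. Over the 11 knockout pairs that reach it, the ratios ran from 0.918 to 2.30, with a median of 1.13. A ratio can rise further where the separate shares are small, so these are not compared with the wild-type ratios. The rank correlations in the knockout and the wild type were 0.21 and 0.18 for Fos and Jun. They were 0.21 and 0.11 for Fosb and Jun, and 0.12 and 0.18 for Fos and Fosb. In the 561 thinned cells left after the primitive endoderm-gene, fibroblast-marker and macrophage-marker cells were removed, Fos and Jun were found together in 7 cells, 1.25% (0.503 to 2.55) against a product of 0.694%. Fosb and Jun shared 9 cells, 1.604% (0.736 to 3.02) against 0.765%. Fos and Fosb shared 4 cells, a ratio of 1.34 in this draw against 2.14 averaged over draws. All 3 intervals are wide at these counts and include the product.

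The genes whose pattern was most like that of Fos over the 800 wild-type cells were taken as the 10 with the highest Spearman correlation among 6549 genes. Dusp1, a phosphatase that inactivates MAP kinases, led with a rho of 0.23, followed by the Krüppel-like factor gene Klf2 at 0.20. Eef1a1 at 0.18 and Gm26532 at 0.17 came next. Egr1, a zinc finger early-response gene, stood at 0.17 and Zfp36, whose protein degrades AU-rich messenger RNA, at 0.17. The others were Hspa8 at 0.16, Rpl3 at 0.16, Ftl1 at 0.16 and Rhob at 0.15. The 99th percentile over all these genes was 0.10. In the 661 knockout cells the same measure was 0.09 for Dusp1, 0.01 for Klf2 and 0.14 for Egr1. Among the 10 genes it ran there from -0.09 for Hspa8 to 0.16 for Gm26532. For Jun the 5 were Gapdh at 0.20, Aldoa at 0.19, Rpl3 at 0.18, Anxa2 at 0.18 and Ldha at 0.17. For Junb they included Dusp1 at 0.15, Ier2 at 0.14, Zfp36 at 0.13 and Gabarap at 0.12. All are weak correlations over shared sparse counts.

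Fos in the wild type showed no steady order along the summed pluripotency markers, though its mean was highest in the cells with the highest sums. The 789 thinned wild-type cells without other cell types were divided by the summed UMIs of the 10 markers into 4 sets of near-equal size. Dppa5a gave 10272 of the 12713 CPM of these markers over the kept wild-type cells, so the division follows mainly that gene. Mean Fos was 1.23 UMIs per cell (1.08 to 1.40) in the set with the lowest sums, 1.07 (0.927 to 1.22) and 1.27 (1.12 to 1.44) in the middle ones and 1.54 (1.37 to 1.72) in the highest. The interval of the highest set lay above that of the lower middle set and overlapped the others. The share of cells with Fos was 56.3%, 49.7%, 49.7% and 54.1%. Jun was highest in the set with the lowest sums, at 0.623 (0.518 to 0.743), against 0.294 to 0.426 in the others. In the knockout the 4 sets lay between 0.048 and 0.147 for Fos, and Jun was 0.210 and 0.178 in the lower pair and 0.075 and 0.094 in the upper pair.

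The genes around AP-1 were read from lists of partners, upstream factors, kinases, brakes, other early genes and targets. Counts are of genes that averaged 10 CPM or more. They stand beside the all-gene median log2 ratio of 0.09 and the 39.03% of all such genes that were lower. Of the 13 bZIP genes on the partner list, which encode leucine zipper proteins, 4 were lower and 9 higher with a median of 0.24, and 0 passed 2-fold. Whether each can pair with Fos or Jun was not tested. Atf3, a stress-induced partner of Jun, stood at 20.5 CPM in the knockout against 10.5 CPM, a log2 ratio of 0.97 (0.73 to 1.21). Atf6, an endoplasmic reticulum stress sensor, stood at 13.8 against 7.005 CPM, or 0.98 (0.69 to 1.28). Of the 14 upstream factors 9 were under 10 CPM and not counted, among them Srf itself, at -5.50, Mkl1, Mkl2 and the Elk genes. The 5 counted were all higher, with a median of 0.44, led by the acetyltransferase genes Ep300 at 0.49 (0.25 to 0.72) and Crebbp at 0.44 (0.25 to 0.63). The TCF cofactor genes of serum response factor were scarce: Elk1 gave 166 and 214 UMIs, Elk3 86 and 55, and Elk4 88 and 109.

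The 17 genes of the MAP kinase route had a median of 0.07, with 4 lower and 13 higher, and 0 past 2-fold. Map2k7, the kinase of JNK, stood at 0.73 (0.50 to 0.96). The 13 brakes had a median of 0.06, 5 lower and 8 higher. Spry4 was at 0.78 (0.62 to 0.94) and Spred1 at 0.52 (0.32 to 0.72), both of which restrain receptor signalling to ERK, while Dusp1 stood at -0.46. These 2 medians change sign, to -0.03 and -0.04, under median-of-ratios scaling, which moves every log2 ratio by -0.11. The all-gene median is then -0.02. The counts turn to 10 lower and 7 higher for the MAP kinase route and 7 and 6 for the brakes. Of the 5 upstream factors counted 1 is then lower. The 11 heat-shock and handling stress genes, a check on cell handling, had a median of 0.04, with 4 lower and 7 higher, that became -0.07, with 8 lower and 3 higher, under that scaling, with Atf3 at 0.97 and Hsp90aa1 at -0.41 (-0.43 to -0.40).

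Among 14 other serum-induced early genes 8 were lower and 6 higher, with a median of -0.14, and the list was split, whereas under median-of-ratios scaling 11 were lower and 3 higher. Egr1 gave 56 and 957 UMIs, 3.08 CPM against 41.1 CPM, a log2 ratio of -3.73 (-4.16 to -3.35), and Cyr61, a matricellular protein gene, stood at -1.37 (-1.60 to -1.14). Myc was higher, at 19.3 against 7.005 CPM, or 1.46 (1.19 to 1.74). Ier2, at -0.04, and Nr4a1, at 0.09, lay near the all-gene median. Among 18 AP-1 targets 4 were lower and 14 higher, with a median of 0.26, where 39.03% of all measured genes were lower. Plaur, the urokinase receptor gene, stood at 24.4 against 7.43 CPM, or 1.71 (1.46 to 1.98), and S100a6 at 1.203 (1.12 to 1.29). Krt18, a simple epithelial keratin gene, was lower at -1.05 (-1.26 to -0.85). Primitive endoderm markers were also higher in this library, and their part in these list values was not tested.

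**Figure D5:**
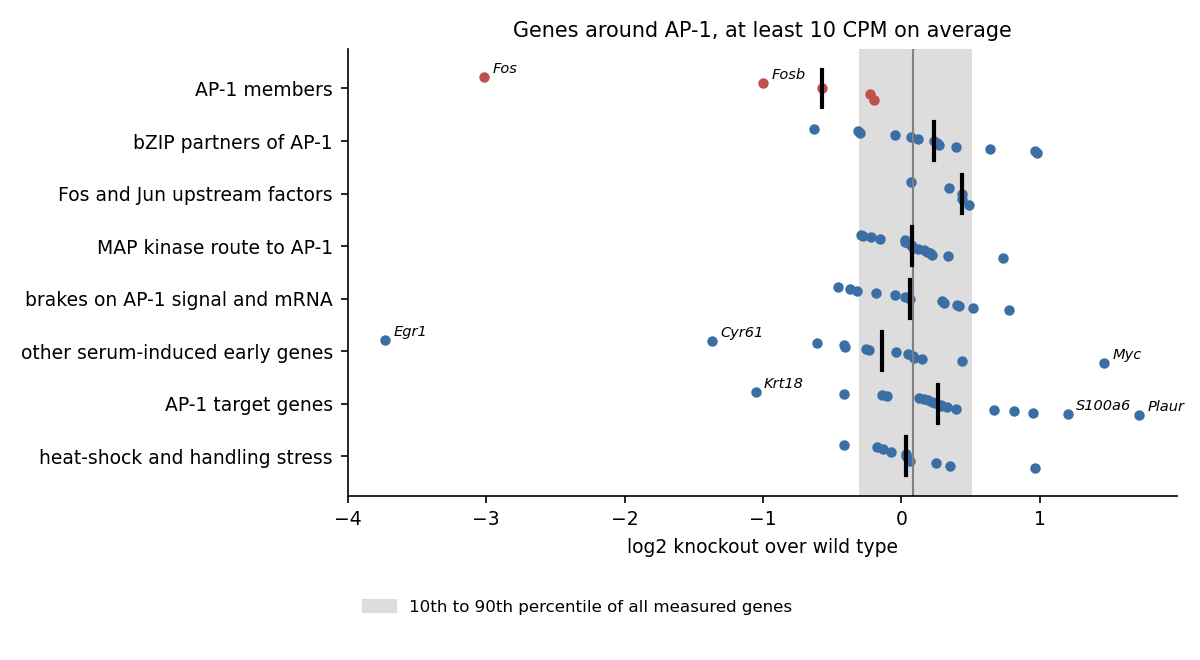
Log2 knockout over wild-type ratio of each gene averaging 10 CPM or more in 8 lists, with black bars for list medians, a grey line for the all-gene median of 0.09 and a grey band from -0.30 to 0.50, the 10th to 90th percentile of all measured genes. Fos and Egr1 stand alone at the far left, at -3.01 and -3.73, while most partners, kinases and brakes lie within or near the band.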

How the data were processed

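Single-cell RNA was measured in 2 libraries, 1 per genotype. The deposited matrices hold raw UMI counts per gene and cell, made by the authors; per the submitters' processing notes the tools were Cell Ranger 2.0.0 and Seurat 3.1.1 and the build was mm10, and the 10x chemistry is not given in the sources used here. Cells left out were, in the knockout and the wild type, 246 and 17 under the mitochondrial limit, 73 and 33 over it, 22 and 10 with fibroblast genes and 5 and 2 with few genes, 4 and 1 cells counting under more than 1 reason. UMIs were summed over kept cells, scaled to CPM, and 0.5 was added to each sum for the log2 ratio. Intervals are exact Poisson, binomial or conditional binomial. Thinning drew 10562 UMIs per cell without replacement, with a fixed seed. A co-detection ratio is the share of cells with both genes over the product of their shares. Gene positions are from GENCODE M21 and promoters from RefSeq, both GRCm38. Named genes were the members, Srf, the genes of each list past 2-fold (at most 4; otherwise the 2 with the largest ratios) and the best correlated genes; some that the rule named are not reported here. The other genes given with values (Dusp1, Ier2, Nr4a1, Elk1, Elk3 and Elk4 among the lists, Bgn, Pou5f1, Dppa5a) were picked after their values were seen. Members and lists were chosen with earlier results of these data known. Scrublet, in scanpy 1.11.5, called 7 knockout and 14 wild-type doublets, kept except where stated. The calculations, in Python 3.11.15 with scipy 1.17.1, were tested on simulated data.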

Additional observations from a re-analysis of the deposited data

Results flagged for a closer look

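The cells left out for fibroblast genes held higher levels of most members than the kept cells. In the 22 knockout cells left out for fibroblast genes, Fos stood at 259.5 CPM, Fosb at 137.0, Fosl1 at 27.4, Fosl2 at 49.96, Jun at 193.4 and Junb at 224.0, each with an interval above that of the kept knockout cells. Jund, at 290.1 CPM against 273.3, did not stand apart. In the 10 such wild-type cells, Fos stood at 594.2 CPM, Fosb at 254.7, Fosl1 at 73.6, Fosl2 at 62.3, Jun at 379.2 and Junb at 486.7. Srf gave 14 UMIs in the 22 knockout cells, 22.6 CPM (12.3 to 37.9), 10 of them in 1 cell. With so few cells, and no statement in the labels that these cells carry the deletion, the 2 sets are not compared with each other. In 71 knockout cells over the mitochondrial limit Jun stood at 70.4 CPM from 41 UMIs, against 29.0 in the kept cells, and in 16 wild-type cells under the limit Junb stood at 136.3 CPM from 39 UMIs, against 52.3.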

How the results depend on the processing

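Every value of Fos stayed lower in the knockout under the 16 alternatives. The Fos log2 ratio was -2.39 without a limit on fibroblast genes, -3.47 without primitive endoderm-gene cells and -3.26 without cells of raised chromosome 8 share. Alternatives chosen after seeing the data, which left out fibroblast-marker and macrophage-marker cells, then also primitive endoderm-gene cells, then also raised chromosome 8 cells, gave -3.31, -3.92 and -4.03. The count of members lower by 2-fold or more, 1 of 5, became 2 (Fosb joining Fos) with mitochondrial shares from 0, without called doublets, without raised chromosome 8 cells, without fibroblast-marker and macrophage-marker cells, under median-of-ratios scaling and with totals free of mitochondrial and ribosomal protein genes, and 3 in each of the 3 sets without primitive endoderm-gene cells. The difference in the share of cells with Fos, 43.1 percentage points, was 27.2 when thinned to 4000 UMIs, 53.0 without thinning and 28.6 for at least 2 UMIs. Fos and Jun co-detection in the wild type, 1.24, was 1.77 for at least 2 UMIs. Over all genes 37 were lower and 105 higher by 2-fold; median-of-ratios scaling, which takes the all-gene median from 0.09 to -0.02, gave 55 and 75, and leaving out primitive endoderm-gene cells gave 39 and 59. Fosb, Jun, Junb and Jund stayed lower and Fosl1 higher in all 16 alternatives, while Fosl2 ran from -0.16 to 0.77. No paired analysis was possible because there is only 1 library of either genotype. Leaving out a replicate was not possible for the same reason. Depth limits Fosl1 and Fosl2 most, with 14 and 35 wild-type UMIs.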

Other observations

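The 244 knockout cells left out for a mitochondrial share under 1% alone were shallow, with 8632 UMIs at the median where the kept cells had 24423. Jund stood in them at 75.2 CPM (65.5 to 86.0), Jun at 9.14 CPM (5.97 to 13.4), Fosb at 2.46 CPM (0.990 to 5.07) and Fos at 4.92 CPM (2.69 to 8.26), each with an interval below that of the kept knockout cells. Against the 619 kept cells without primitive endoderm genes or markers of other types, at 7.505 CPM (6.21 to 8.99) for Fos and 13.9 CPM (12.1 to 15.9) for Jun, those 2 intervals overlap, while those of Fosb and Jund do not. Junb, at 36.9 CPM (30.2 to 44.7), overlapped the kept level of 45.5 CPM, and Fosl1, at 4.22 CPM (2.18 to 7.37), overlapped its 5.16 CPM. The pluripotency markers of these cells summed to 10999 CPM, and the primitive endoderm markers to 105.1 CPM against 389 in the kept cells. The part of depth in these values was not tested.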
